A study of Mus musculus with 3 samples.

Results

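The genes of glycolysis, of lactate handling and of the enzymes that switch carbon between glycolysis and the mitochondria were examined in sorted mouse nephron progenitors. The set was defined by gene symbol and held 32 genes of the 27998 in the count matrix. All 32 were found, and 30 of them had enough counts to be tested. Eno2, the neuronal enolase, and Pdk4, a pyruvate dehydrogenase kinase, did not.

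Nephron progenitors are the mesenchymal cells that surround the tips of the branching ureteric bud in the fetal kidney and give rise to the nephrons. The cells came from Six2GFP+ embryos at E14.5, in which green fluorescent protein marks cells that express the transcription factor Six2, and no treatment was given. All libraries carried this reporter and all were put in a single group by the labels. Embryos of more than one litter were pooled into each of 3 tubes, live single GFP-positive cells were sorted, and each tube became one droplet library. The cells were grouped here by raw counts of unique molecular identifiers (UMIs, which count captured mRNA molecules). Six2-only cells had at least 1 Six2 UMI and none of Fgf8, Wnt4 or Lhx1. Fgf8-positive cells had at least 1 Fgf8 UMI and none of Wnt4 or Lhx1, Wnt4-positive cells had at least 1 Wnt4 UMI and no Lhx1, and Lhx1-positive cells had at least 1 Lhx1 UMI. Wnt4 encodes the signal that starts the conversion of mesenchyme to epithelium, Fgf8 a growth factor needed for nephron formation, and Lhx1 a transcription factor of the first nephron structures. A single UMI can be free RNA picked up by a droplet, so the groups are ranges of cells and not cell types.

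Glycolysis splits glucose into pyruvate through a fixed chain of enzymes, and lactate dehydrogenase can then turn pyruvate into lactate, which leaves the cell through monocarboxylate transporters. Several steps have paralogous enzymes with different kinetics and regulation, such as hexokinase 1 and 2 or the A and B subunits of lactate dehydrogenase. Nephron progenitors are known as glycolytic cells, and a lower use of glycolysis has been linked to their differentiation.

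Across the groups the data showed small changes of single genes, higher for some and lower for others, while the median change of the tested members stayed near that of all genes. Compared with Six2-only cells, Wnt4-positive cells had more Ldha, Ldhb, Slc16a1, Hk2, Pgam1, Eno1 and Pdk3 and less Hk1, Gpi1 and Aldoa. Hk1 had the largest change of those that passed the test, and the share of Hk2 in hexokinase UMIs was 37.7% ± 8.18 (SD, n = 3) in Six2-only and 57.2% ± 6.03 in Wnt4-positive cells. The Hk2 call was lost without any one library, whereas those of Hk1, Gpi1, Ldha and Ldhb were not lost by leaving out a library. Those of Slc16a1, Pgam1, Eno1, Aldoa and Pdk3 were each lost when some library was left out. Pdk3 passed in 4 of 14 alternative settings of cells, counts and fit. The Hk1 call was lost after thinning cells and among cells without Mki67 or Top2a UMIs. Of the members, Ldha varied most from cell to cell.

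The upstream sequences of 4 genes are shown because these were the members with the largest changes among those higher in both Fgf8-positive and Wnt4-positive cells, and because hypoxia-inducible factors, known regulators of glycolysis genes, bind a short core motif. Each is the 250 bases before the annotated start, 5′ to 3′ on the strand of the gene, from RefSeq on GRCm38.p6. Capitals mark the letters ACGTG or GCGTG, or their reverse complements. Hk2, which encodes hexokinase 2, lies on the minus strand at chr6:82774455-82774704. Slc16a1, which encodes the monocarboxylate transporter MCT1, lies on the plus strand at chr3:104638414-104638663. Ldha, the A subunit of lactate dehydrogenase, lies on the plus strand at chr7:46845554-46845803 for the first of its 2 annotated starts. Pgam1, a phosphoglycerate mutase, lies on the plus strand at chr19:41911621-41911870.
Hk2: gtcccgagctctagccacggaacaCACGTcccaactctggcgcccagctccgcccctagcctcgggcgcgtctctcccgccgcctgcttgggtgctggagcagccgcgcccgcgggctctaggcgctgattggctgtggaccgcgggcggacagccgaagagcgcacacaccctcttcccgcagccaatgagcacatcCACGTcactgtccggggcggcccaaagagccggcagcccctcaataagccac
Slc16a1: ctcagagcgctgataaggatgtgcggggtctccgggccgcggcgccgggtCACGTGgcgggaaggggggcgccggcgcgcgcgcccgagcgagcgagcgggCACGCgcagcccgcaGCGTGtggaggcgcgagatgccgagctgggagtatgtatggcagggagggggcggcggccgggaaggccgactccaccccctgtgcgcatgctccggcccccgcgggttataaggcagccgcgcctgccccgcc
Ldha: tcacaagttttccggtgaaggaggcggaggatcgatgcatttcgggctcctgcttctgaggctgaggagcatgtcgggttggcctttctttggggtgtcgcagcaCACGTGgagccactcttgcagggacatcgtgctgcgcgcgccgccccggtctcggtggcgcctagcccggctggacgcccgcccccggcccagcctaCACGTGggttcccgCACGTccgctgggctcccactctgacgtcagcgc
Pgam1: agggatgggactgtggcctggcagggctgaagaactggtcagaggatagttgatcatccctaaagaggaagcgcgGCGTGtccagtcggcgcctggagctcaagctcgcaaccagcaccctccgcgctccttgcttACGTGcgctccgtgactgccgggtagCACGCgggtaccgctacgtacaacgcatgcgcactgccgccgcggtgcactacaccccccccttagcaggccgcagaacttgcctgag
The Hk2 window held 2 matches, at 226 and 52 bases before the start. The Slc16a1 window held 4 and the Ldha window 5, in both cases with the palindrome CACGTG, which counts as a match on each strand. The window of the second Ldha start held 1 match and that of Pgam1 held 3. The core was found in 38.6% of the 32851 promoter windows of this length in the table and in 37 of the 47 windows of the 31 members listed there (78.7%). CACGTG was found in 6.02% of all windows and in 6 of the member windows (12.8%). The base composition of the windows was not matched, and a match is a run of letters and not a binding site.

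The kept cells numbered 7875, of which 6843 fell in the 4 groups. Six2-only cells numbered 1361, 1368 and 1111 in libraries 1, 2 and 3, the order used for all values below. Fgf8-positive cells numbered 967, 897 and 650, Wnt4-positive cells 199, 103 and 108, and Lhx1-positive cells 31, 29 and 19. The summed UMIs of a group in a library ran from 373985 to 22111992. Levels are given as counts scaled to a common total of UMIs (CPM), a share of the captured RNA and not an amount per cell. Reads were taken at transcript ends, so levels of different genes were compared without a length correction. All 8 progenitor markers checked were found in every group. Six2 was at 166 ± 31.8 CPM (SD, n = 3) in Six2-only and 108 ± 21.0 in Wnt4-positive cells. Cited1, a gene of uncommitted progenitors, was at 184 ± 24.2 and 112 ± 38.8. The markers did not all fall: Sall1 was at 88.1 ± 19.4 and 95.1 ± 7.08 CPM, and Wt1 at 371 ± 65.4 and 358 ± 67.3. Six2 and Wnt4 helped to define the groups, and their levels are no finding.

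Other properties moved with the groups. The median UMIs per cell were 11515 to 15576 in Six2-only, 13224 to 17019 in Fgf8-positive and 14039 to 20098 in Wnt4-positive cells. Cells with a UMI of the proliferation genes Mki67 or Top2a made up 42.0% to 51.3% of Six2-only cells, 52.8% to 59.0% of Fgf8-positive and 62.1% to 75.0% of Wnt4-positive cells. Lhx1-positive cells ranged from 11734 to 22667 median UMIs and from 48.3% to 83.9% of cells with such a UMI. In library 2 they were below the Wnt4-positive cells on both, at 11734 against 14039 UMIs and 48.3% against 62.1%. The 8 immune markers summed to 2.63 to 14.8 CPM in Six2-only cells and reached 99.9 CPM in Wnt4-positive cells of library 2, where 1 immune cell was present. The 8 ureteric markers summed to 85.8 to 94.4 CPM in Six2-only, 102 to 131 CPM in Wnt4-positive and 277 to 473 CPM in Lhx1-positive cells. Most of the Six2-only sum was Hoxb7 and Wfdc2, at mean levels of 60.7 and 20.8 CPM, against 49.0 and 56.8 CPM in Wnt4-positive cells. Calb1, Gata3, Ret and Wnt11 were at 0.14, 0.11, 0.06 and 0.16 CPM in Six2-only cells. In Wnt4-positive cells these were at 0.82, 0.36, 0 and 0.16 CPM. In Lhx1-positive cells Calb1 was at 91.0 ± 88.4 and Wfdc2 at 179 ± 83.3 CPM (SD, n = 3). All 8 erythroid markers were at 0 in Lhx1-positive cells, where a count of 0 allows up to 3.96, 8.02 and 7.23 CPM. Their sum in Six2-only cells was 2.11 ± 2.37 CPM, so the groups cannot be told apart on it. Libraries shared 10, 7 and 5 cell barcodes in pairs.

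The members together took 0.889% of UMIs in Six2-only, 0.929% in Fgf8-positive, 0.906% in Wnt4-positive and 0.898% in Lhx1-positive cells. Their sum was 8888 ± 1548 CPM (SD, n = 3) in Six2-only and 9064 ± 1469 in Wnt4-positive cells, so that the groups overlapped across libraries. By library the sum was 7426, 10510 and 8728 CPM in Six2-only, 7655, 11042 and 9168 in Fgf8-positive, 7621, 10558 and 9014 in Wnt4-positive and 7458, 10217 and 9251 in Lhx1-positive cells. It was higher than in the Six2-only cells of the same library in 3 of 3 for Fgf8-positive and Wnt4-positive cells and in 2 of 3 for Lhx1-positive cells, and no test of the sum was made. Library 2 stood apart. In Six2-only cells 31 of the 32 members were highest there and 29 were lowest in library 1, with a median ratio of 1.43 between those libraries over the 30 members above 1 CPM. Ribosomal protein genes moved the other way, at 24.8%, 13.1% and 21.2% of UMIs, and their part in the levels was not tested. The levels of most members overlapped between groups across libraries, and groups were compared within libraries.

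**Figure D1:**
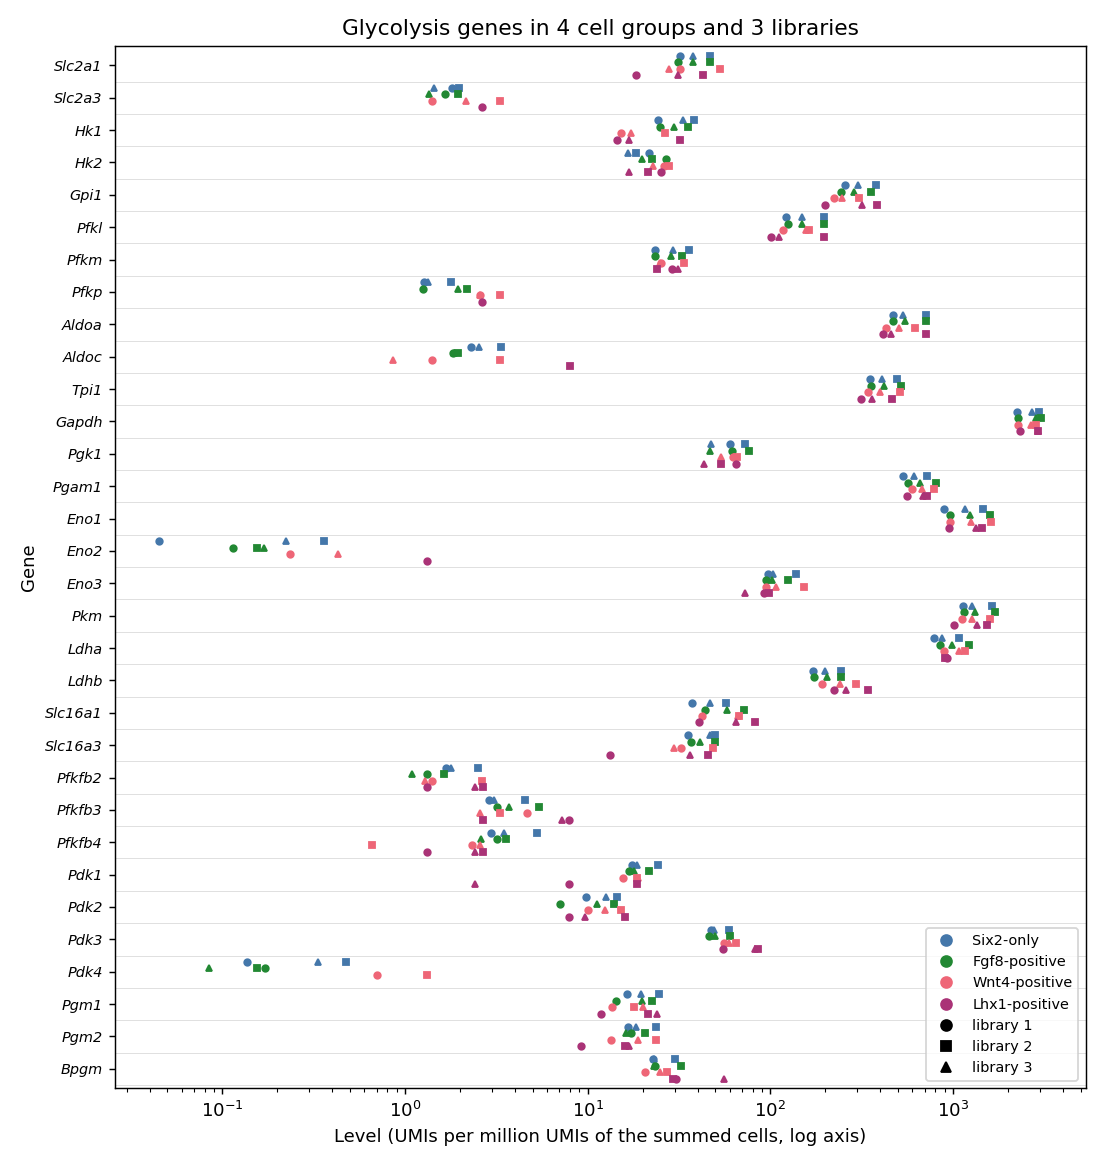
Level of each of the 32 genes in CPM (log axis), 1 point per library and cell group, with colour for the group and shape for the library; values of 0 are not drawn. Gapdh lay at 2229 to 3048 CPM in every group and library, and the scarce paralogs such as Pfkp and Aldoc lay near 1 to 3 CPM in Six2-only cells.

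Of the pair of glucose transporter genes in the set, Slc2a1 had nearly all the UMIs. Slc2a1, the basal glucose transporter GLUT1, was at 32.2, 46.6 and 37.8 CPM in Six2-only cells and at 31.9, 52.9 and 27.9 CPM in Wnt4-positive cells. Slc2a3, the high-affinity transporter GLUT3, was at 1.74 ± 0.27 CPM (SD, n = 3) in Six2-only cells, so that Slc2a1 gave 95.6% ± 0.86 of the pair. The groups overlapped for both genes, and neither passed the test in any comparison.

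In the upper pathway, which phosphorylates glucose and splits it, the dominant paralogs were Pfkl for phosphofructokinase and Aldoa for aldolase. Pfkl, the liver-type subunit, made up 83.4% ± 0.55 of phosphofructokinase UMIs in Six2-only cells, ahead of the muscle-type Pfkm at 15.8% ± 0.56 and the platelet-type Pfkp at 0.79% ± 0.064 (SD, n = 3). Aldoa gave 99.5% ± 0.010 of aldolase UMIs and the brain-type Aldoc the rest. Aldoa was at 569 ± 124 CPM, Tpi1, triosephosphate isomerase, at 419 ± 72.0 and Gpi1, glucose-6-phosphate isomerase, at 313 ± 63.6. The hexokinases, which trap glucose in the cell, were much scarcer, with Hk1 at 32.1 ± 7.08 and Hk2 at 19.0 ± 2.52 CPM.

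The lower pathway, which yields ATP, held the most abundant members. Gapdh, which makes NADH, was at 2622 ± 362 CPM (SD, n = 3) in Six2-only cells, Pkm, pyruvate kinase, at 1347 ± 253, Eno1, the ubiquitous enolase, at 1174 ± 284 and Pgam1 at 620 ± 97.5. Pgk1, phosphoglycerate kinase, was listed at only 60.3 ± 12.7 CPM. Eno3, the muscle enolase, gave 8.85% ± 0.84 of enolase UMIs, and Eno2 was found with 11 UMIs in all Six2-only cells. Gapdh, Pgk1, Eno1 and Aldoa have near-identical copies in the genome. The copy Eno1b took 1837 UMIs and Pgk1-rs7 took 121 over all groups, so the levels of these genes are uncertain to the extent that reads were split or dropped. The splice forms of Pkm were counted as one gene.

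Of the genes that make and move lactate, Ldha was at 791, 1077 and 871 CPM in Six2-only cells and Ldhb, the B subunit that favours lactate oxidation, at 171, 244 and 199.5 CPM. The transporters Slc16a1 and Slc16a3, which encode MCT1 and the export-type MCT4, were near each other at 47.2 ± 10.0 and 43.9 ± 7.36 CPM (SD, n = 3). The switch enzymes were scarce. Pfkfb2, Pfkfb3 and Pfkfb4, which set the level of the phosphofructokinase activator fructose 2,6-bisphosphate, were at 1.99 ± 0.45, 3.50 ± 0.90 and 3.92 ± 1.24 CPM. The kinases that shut off pyruvate dehydrogenase were led by Pdk3 at 52.0 ± 6.52 CPM, followed by Pdk1 at 20.1 ± 3.74 and Pdk2 at 12.3 ± 2.42. Pdk4, known for its rise in fasting, had 17 UMIs in Six2-only cells and none in Lhx1-positive cells, where a count of 0 allows up to 3.96, 8.02 and 7.23 CPM. Of the side reactions, the phosphoglucomutase genes Pgm1 and Pgm2 were at 20.2 ± 4.09 and 19.6 ± 3.62 CPM and Bpgm, which makes 2,3-bisphosphoglycerate, at 25.3 ± 4.08. RefSeq gives these phosphoglucomutase symbols the other way round: the gene called Pgm1 in the files (ENSMUSG00000029171, on chromosome 5) is Pgm2 there.

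Fgf8-positive cells were compared with Six2-only cells first. Of the 30 members tested, 5 were higher and 0 lower (adjusted p under 0.05, edgeR's quasi-likelihood test with the library as a block), where 10.1% of all genes tested passed, 5.31% higher and 4.75% lower. An unadjusted p under 0.05 was found for 11 members and 23.8% of all genes, and DESeq2 called 3 members and 2.34% of all genes. DESeq2 gave no adjusted p for the scarcer members, such as Hk1, Hk2 and Bpgm, and these were counted as not called. The median log2 change was 0.015 over the members and -0.019 over all genes. Slc16a1 was at 37.4, 57.4 and 46.7 CPM in Six2-only and at 44.1, 72.0 and 57.6 CPM in Fgf8-positive cells. It was higher in the Fgf8-positive cells of each library although the groups overlapped across libraries, a log2 change of 0.30 ± 0.05 (SE; adjusted p = 3.81e-05). Hk2 was at 21.7, 18.5 and 16.7 CPM in Six2-only and 27.0, 22.5 and 19.9 CPM in Fgf8-positive cells, again higher in 3 of 3 libraries with overlap across them, by 0.29 ± 0.07 (adjusted p = 0.00404). Unlike most members, Hk2 was highest in library 1 in these cells.

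The other members that rose in Fgf8-positive cells were abundant genes of the lower pathway and lactate step, with smaller changes. Ldha went from the levels above to 853, 1221 and 991 CPM, a log2 change of 0.16 ± 0.04 (adjusted p = 0.00286). Pgam1 went from 530, 723 and 608 CPM to 568, 803 and 659 CPM (0.13 ± 0.03, adjusted p = 0.00109). Eno1 went from 892, 1461 and 1167 CPM to 959, 1586 and 1239 CPM (0.11 ± 0.03, adjusted p = 0.0065). Each of the 3 was higher in every library, and their groups overlapped across libraries. The calls of Hk2, Pgam1 and Eno1 were lost without library 1, with log2 changes of 0.29, 0.16 and 0.13 there (adjusted p = 0.103, 0.0517 and 0.159). That of Ldha was lost under DESeq2 (0.18, adjusted p = 0.117), which gave no adjusted p for Hk2. Those of Hk2 and Slc16a1 were lost when cells were thinned to 6000 UMIs before grouping (0.36 and 0.27, adjusted p = 0.157 and 0.0577). Among cells without Mki67 or Top2a UMIs all 5 calls remained.

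Wnt4-positive cells were then compared with the same Six2-only cells, so these values are not independent of the previous comparison. Of the 30 members 7 were higher and 3 lower, where 17.5% of all genes passed, 8.99% higher and 8.53% lower. An unadjusted p under 0.05 was found for 13 members and 29% of all genes, and DESeq2 called 9 members and 11.8% of all genes. The median log2 change was -0.022 over the members and -0.023 over all genes.

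The hexokinases moved apart. Hk1, the hexokinase of most adult tissues, was at 24.4, 38.3 and 33.5 CPM in Six2-only and 15.2, 26.5 and 17.2 CPM in Wnt4-positive cells. It fell by 0.74 ± 0.12 on the log2 scale (SE; edgeR adjusted p = 2.45e-05), lower in 3 of 3 libraries with 1 value of each group in the range of the other. Hk2, the form typical of growing and insulin-responsive tissue, was at 26.2, 27.8 and 22.8 CPM in Wnt4-positive cells, all above the 16.7 to 21.7 CPM of Six2-only cells, a log2 change of 0.38 ± 0.11 (adjusted p = 0.0169). These are scarce genes with 145 and 207 UMIs in Wnt4-positive cells. The Hk1 call was lost among cells without Mki67 or Top2a UMIs (-0.36, adjusted p = 0.478) and after thinning cells (-0.56, adjusted p = 0.378), and its change was -1.17 when at least 2 UMIs defined a group. The Hk2 call was lost without library 1, 2 or 3 (adjusted p = 0.0548, 0.0758 and 0.0959), and its direction turned after thinning cells (-0.16, adjusted p = 0.904). Hk2 passed in 6 of 14 alternative settings of cells, counts and fit.

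Among the other upper pathway genes, Gpi1 and Aldoa fell in Wnt4-positive cells. Gpi1 was at 255, 381 and 303 CPM in Six2-only and 223, 304 and 247 CPM in Wnt4-positive cells. It fell by 0.26 ± 0.04 (SE; edgeR adjusted p = 2.71e-05), and its call remained without each library in turn, after thinning cells and among cells without Mki67 or Top2a UMIs. Aldoa was at 468, 707 and 533 CPM and then 432, 622 and 507 CPM, a fall by 0.12 ± 0.03 (adjusted p = 0.00979). The Aldoa call was lost without library 1 or 2 (adjusted p = 0.238 and 0.106), and among cells without Mki67 or Top2a UMIs its change was -0.022 (adjusted p = 0.933). Both genes were lower in each library and overlapped between groups across libraries.

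At the lactate step both subunits rose. Ldha was at 896, 1169 and 1082 CPM in Wnt4-positive cells, a log2 change of 0.20 ± 0.04 (SE; edgeR adjusted p = 0.0007), and Ldhb at 192, 293 and 241 CPM, a change of 0.23 ± 0.04 (adjusted p = 0.000119). Both were higher in 3 of 3 libraries with overlap between the groups. Both calls remained without each library and among cells without Mki67 or Top2a UMIs, and the Ldhb change was 0.37 both after thinning cells and with at least 2 UMIs for a group. Slc16a1 was at 42.4, 67.5 and 66.2 CPM, a change of 0.30 ± 0.08 (adjusted p = 0.0062), and that call was lost without library 3 (0.21, adjusted p = 0.203) and among cells without Mki67 or Top2a UMIs (adjusted p = 0.237). Slc16a3 went the other way, from 35.6, 49.6 and 46.5 to 32.6, 48.3 and 29.6 CPM, and did not pass (-0.26 ± 0.11, adjusted p = 0.0912).

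In the lower pathway the genes that rose were again Pgam1, to 597, 783 and 678 CPM (0.15 ± 0.03, edgeR adjusted p = 0.000872), and Eno1, to 966, 1613 and 1259 CPM (0.12 ± 0.03, adjusted p = 0.0053). Both calls were lost without library 1, with changes of 0.15 and 0.14 (adjusted p = 0.0725 and 0.107). Over 14 alternative settings of cells, counts and fit, Pgam1 passed in 11 and Eno1 in 9. Their lowest changes there were -0.042 and 0.014. Of the switch enzymes Pdk3 rose, from 47.4, 59.4 and 49.0 CPM to 55.5, 64.8 and 59.3 CPM (0.22 ± 0.07, adjusted p = 0.0357). The Pdk3 call was lost without library 1 or 3 (adjusted p = 0.204 and 0.179), and among cells without Mki67 or Top2a UMIs the change was 0.040 (adjusted p = 0.964). Gapdh, Pkm, Tpi1, Pfkl and Slc2a1 did not pass in this comparison or the previous one. Of scarce members, Pfkp was at 1.27, 1.79 and 1.33 CPM in Six2-only and 2.58, 3.31 and 2.58 CPM in Wnt4-positive cells, with no overlap, on 82 and 22 UMIs (0.97 ± 0.40, adjusted p = 0.094).

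Lhx1-positive cells were compared with Wnt4-positive cells, which the preceding comparison also used. None of the 30 members passed edgeR's test (0 called, against 1.41% of all genes), 6 had an unadjusted p under 0.05, against 10.2% of all genes, and DESeq2 called 0, against 1.78% of all genes. The 6 were Tpi1, Eno3, Ldha, Ldhb, Pdk1 and Bpgm. Bpgm was at 20.6, 27.1 and 24.9 CPM in Wnt4-positive and 30.3, 29.4 and 55.4 CPM in Lhx1-positive cells, with no overlap and on 57 UMIs (0.62 ± 0.24, adjusted p = 0.308). Pdk1 was at 15.7, 18.5 and 18.9 CPM and then 7.91, 18.7 and 2.41 CPM, on 14 UMIs (-0.97 ± 0.38, adjusted p = 0.311). Only 79 cells stood behind these levels, and 20 of them also met the rule for Six2-only cells apart from Lhx1. The standard error of a log2 change reached 1.06 there, for Slc2a3.

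**Figure D2:**
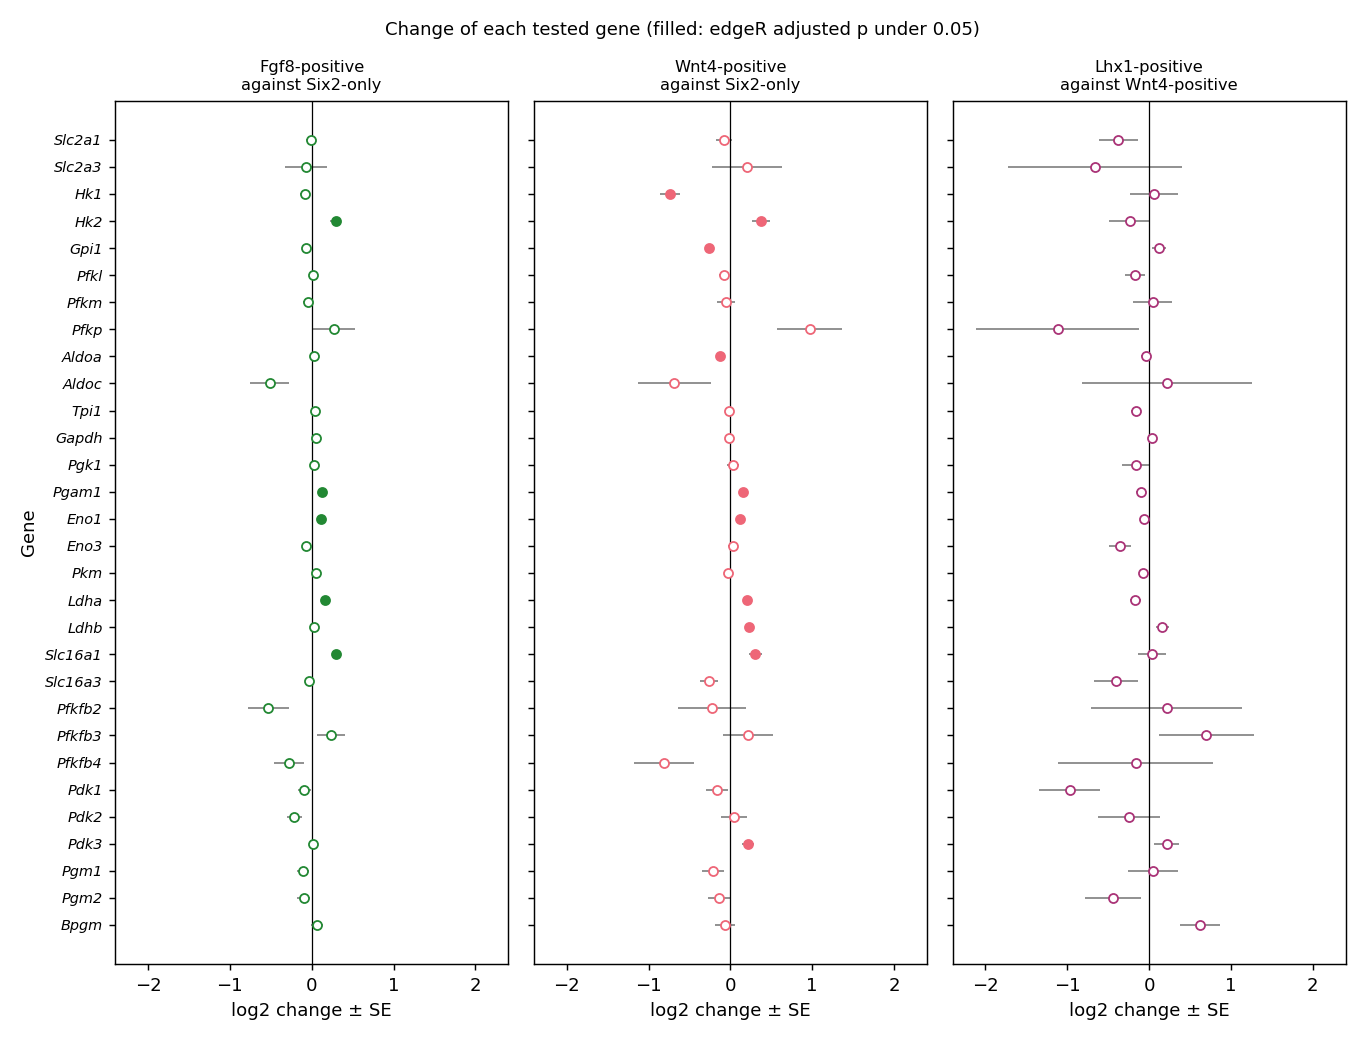
Log2 change of the 30 tested genes in each comparison (points) with its standard error (bars); filled points passed edgeR's test. In Wnt4-positive cells Hk1 lies at -0.74 and Hk2 at 0.38, while no gene is filled in the Lhx1 panel, where the bars are widest.

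Paralog use was expressed as the share of family UMIs, which does not depend on the total of a library. Hk2 made up 47.1%, 32.6% and 33.3% of hexokinase UMIs in Six2-only cells (exact 95% intervals 44.0 to 50.2, 29.6 to 35.6 and 30.3 to 36.5). It made up 52.2%, 38.8% and 40.1% in Fgf8-positive and 63.3%, 51.2% and 57.0% in Wnt4-positive cells. Library 1 was high in every one of these groups, and within each library the share rose in the same order. The difference from Six2-only cells was 6.04 ± 0.90 percentage points (SD, n = 3) for Fgf8-positive and 19.5 ± 3.81 for Wnt4-positive cells. The exact sign-flip permutation test gave p = 0.25, two-sided, for both, which is the smallest p that 3 libraries allow. In Lhx1-positive cells the share was 51.1% ± 11.7 on 64 UMIs, and its intervals covered those of Wnt4-positive cells.

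Ldhb gave a narrow range, at 18.3% ± 0.47 (SD, n = 3) of lactate dehydrogenase UMIs in Six2-only, 16.9% ± 0.18 in Fgf8-positive and 18.7% ± 1.24 in Wnt4-positive cells. The subunits thus rose side by side in Wnt4-positive cells, where the share differed from that of Six2-only cells by 0.38 ± 1.06 points, higher in 1 of 3 libraries. In Lhx1-positive cells Ldhb was at 19.4%, 27.4% and 21.9%, above the Wnt4-positive cells of the same library in 3 of 3 (4.21 ± 2.85 points, exact permutation p = 0.25, smallest possible). The share of Pdk3 among the pyruvate dehydrogenase kinases was 61.5% ± 1.74, 63.9% ± 1.73, 66.0% ± 1.50 and 78.7% ± 8.07 in Six2-only, Fgf8-positive, Wnt4-positive and Lhx1-positive cells. Its difference between Wnt4-positive and Six2-only cells was 4.29, 4.79 and 4.58 points in the 3 libraries. Slc16a1 made up 51.7% ± 1.82, 57.3% ± 2.46, 61.3% ± 6.77 and 68.2% ± 6.45 of the transporter pair in the same order. Of 25 paralog shares computed in each comparison, 18 moved the same way in all 3 libraries for Fgf8-positive, 9 for Wnt4-positive and 8 for Lhx1-positive cells, shares of one family being tied to each other. No share could reach 0.05 before or after adjustment.

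**Figure D3:**
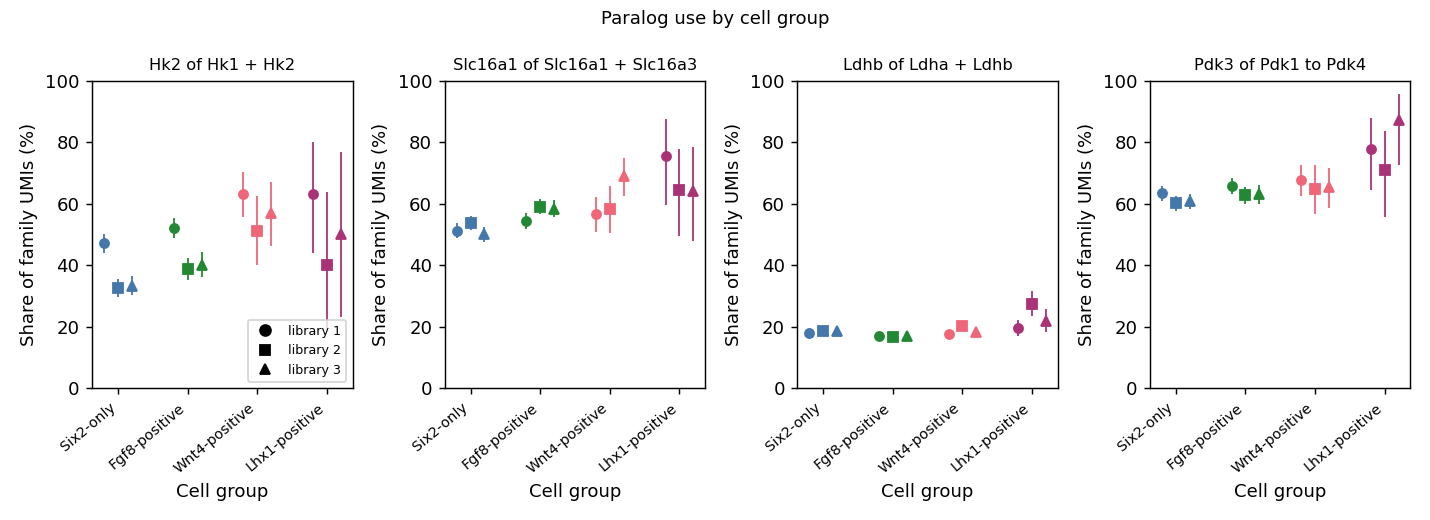
Share of each named paralog in the UMIs of its family (percent) by cell group, 1 point per library with its exact 95% binomial interval, which covers counting error only. The Hk2 share in Wnt4-positive cells (51.2% to 63.3%) lies above that in Six2-only cells (32.6% to 47.1%), and the Ldhb share stays between 16.7% and 27.4%.

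Variation from cell to cell was measured in Six2-only cells thinned to 6000 UMIs, as the variance of UMIs over their mean, a ratio near 1 for pure counting noise. Ldha stood out among the members at 2.30, 2.83 and 2.71, with ranks 41, 40 and 36 among the 1813, 2177 and 1937 genes at a mean of 0.5 UMIs or more, whose median was 1.05 in each library. Gapdh, although more abundant, was at 1.42 to 1.60 and Eno1 at 1.50 to 1.74. Gpi1, at 0.96 to 1.10, had a spread near counting noise. A cell at the 5th percentile of library 1 had 1 Ldha UMI and a cell at the 95th had 11, around a median of 4. In library 2 these were 1, 14 and 5. Cells with Mki67 or Top2a UMIs had 1.25 ± 0.03 times (SD, n = 3) the Ldha UMIs of cells without, 1.12 ± 0.03 times the Pgam1 and 0.88 ± 0.01 times the Gpi1. Within the cells without such UMIs the Ldha ratio was still 2.25, 2.75 and 2.88.

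**Figure D4:**
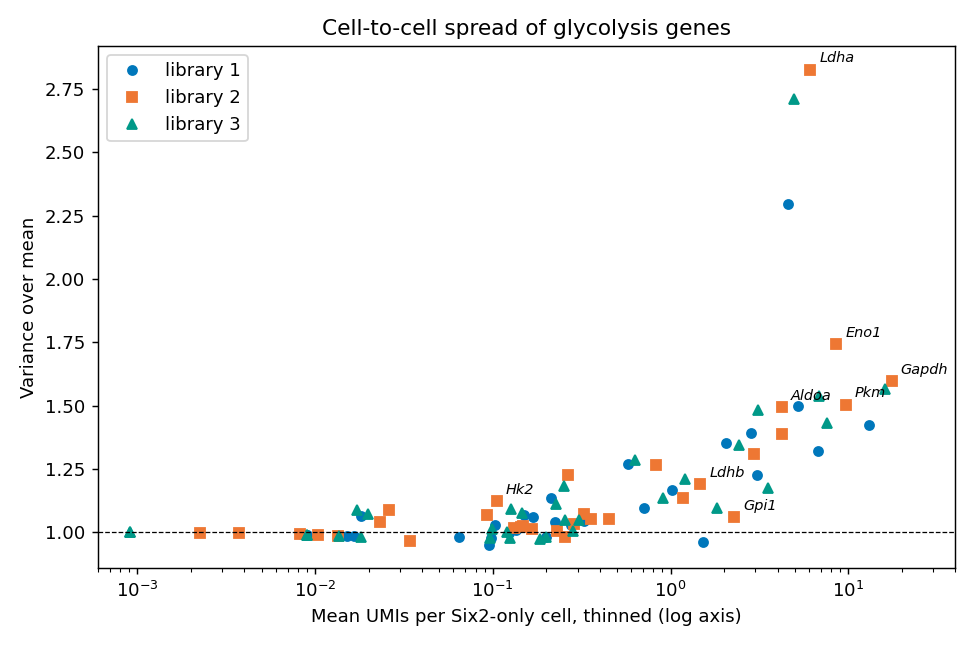
Variance over mean of UMIs against mean UMIs (log axis) for each gene in Six2-only cells thinned to 6000 UMIs, 1 point per gene and library, with the dashed line at the value of counting noise. Ldha lies at 2.30 to 2.83 and every other gene below 1.75.

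**Figure D5:**
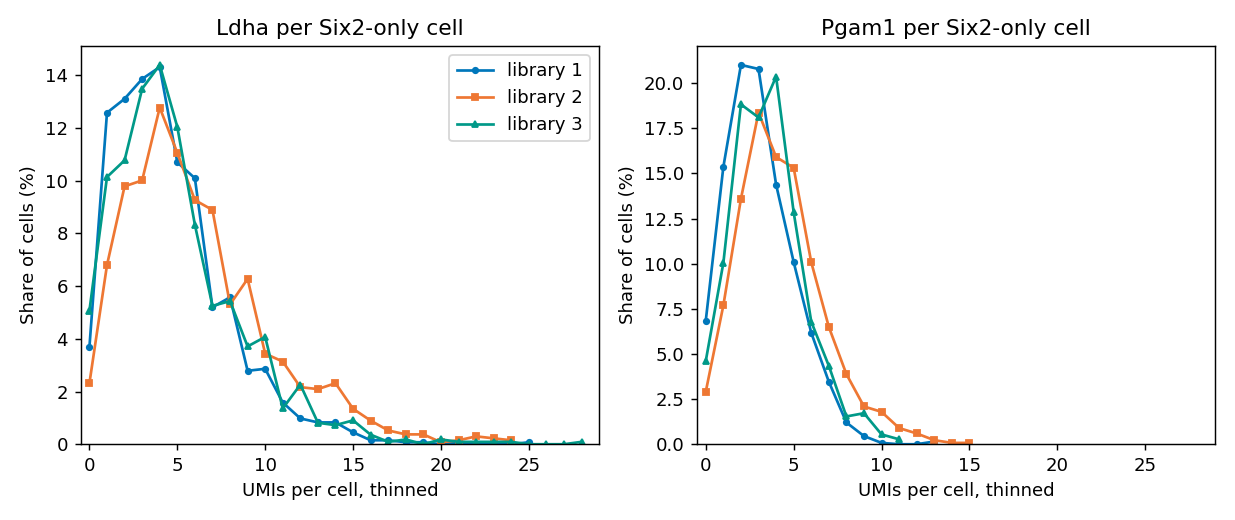
Distribution of Ldha and Pgam1 UMIs over Six2-only cells thinned to 6000 UMIs (percent of cells, 1 line per library). Ldha has the longer upper tail, with a highest cell at 28 UMIs, and Pgam1 reaches 15.

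The neighbouring pathways were counted from lists. Of all genes tested, 5.31% were higher and 4.75% lower in Fgf8-positive cells, and 8.99% were higher and 8.53% lower in Wnt4-positive cells. Serine and one-carbon synthesis, which branches from 3-phosphoglycerate, had 5 of 9 genes higher and 0 lower in Fgf8-positive cells and 4 higher and 1 lower in Wnt4-positive cells, with list medians of 0.17 and 0.26 against the all-gene medians above. Psat1, which makes phosphoserine, rose by 0.34 ± 0.05 and 0.59 ± 0.08 (edgeR, SE), from 71.5 ± 7.03 to 89.9 ± 10.1 and 104 ± 15.9 CPM (SD, n = 3). Mthfd2, a mitochondrial folate enzyme, rose by 0.35 ± 0.05 and 0.49 ± 0.07. Phgdh, more abundant than both, was the gene that was lower in Wnt4-positive cells (-0.12 ± 0.04, edgeR adjusted p = 0.0364). It was at 804 ± 139 CPM in Six2-only and 747 ± 139 in Wnt4-positive cells, and rose by 0.17 ± 0.03 in Fgf8-positive cells. The Phgdh call in Wnt4-positive cells was lost without library 1. The citric acid cycle had 3 of 20 genes higher and 1 lower in Fgf8-positive and 6 higher and 0 lower in Wnt4-positive cells, led by Idh3a, a subunit of isocitrate dehydrogenase, at 0.19 ± 0.04 and 0.31 ± 0.06. In the pentose phosphate list 0 of 11 passed in Fgf8-positive cells and 2 rose in Wnt4-positive cells, Rpia by 0.32 ± 0.10 and Tkt, transketolase, by 0.22 ± 0.04.

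Of 10 genes of glycogen and gluconeogenesis 2 were lower and 0 higher in each comparison with Six2-only cells, where 4.75% and 8.53% of all genes were lower, and 1 was lower in Fgf8-positive cells without any one library. Pygm, muscle glycogen phosphorylase, fell by 0.37 ± 0.08 in Fgf8-positive and by 1.32 ± 0.18 in Wnt4-positive cells (edgeR, SE), from 21.0 ± 4.66 to 16.2 ± 3.50 and 8.75 ± 3.89 CPM (SD, n = 3). Of 11 genes for pyruvate entry into mitochondria 0 passed in either comparison. In Lhx1-positive against Wnt4-positive cells 1 of the 11 was higher, where 1.12% of all genes were higher. This was Mpc2, part of the mitochondrial pyruvate carrier (0.62 ± 0.16, edgeR adjusted p = 0.0323), at 101 ± 49.8 against 70.8 ± 11.6 CPM. The Mpc2 call was lost without library 1. Of 13 tested glycolysis genes outside the set, 1 passed in each comparison with Six2-only cells, the transporter Slc2a8, which fell by 0.27 ± 0.08 and 0.42 ± 0.14. In both comparisons this call was lost without library 1, 2 or 3.

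Of 33 tested regulators 2 were higher and 2 lower in Fgf8-positive and 4 higher and 4 lower in Wnt4-positive cells. For this list and the next, the background was 5.31% of all genes higher and 4.75% lower in Fgf8-positive cells. It was 8.99% higher and 8.53% lower in Wnt4-positive cells. Mycn, a MYC-family factor known to drive growth and glycolysis genes, rose from 54.0 ± 10.1 to 117 ± 15.6 CPM (SD, n = 3) in Wnt4-positive cells (1.14 ± 0.07, edgeR adjusted p = 1.23e-13). Mlxipl, a glucose-sensing factor, rose by 1.23 ± 0.34 there from 1.88 ± 0.16 CPM. Ppargc1a, a coactivator of mitochondrial genes, fell by 1.40 ± 0.16 in Fgf8-positive and 1.12 ± 0.29 in Wnt4-positive cells, from 8.57 ± 1.71 CPM. In Wnt4-positive cells 3 regulators were higher and 0 lower without library 1, and 1 was higher and 0 lower without library 3. The Ppargc1a call in Wnt4-positive cells was thus lost without library 1 or 3. Of 27 hypoxia targets outside glycolysis, 2 were higher and 3 lower in Fgf8-positive and 4 higher and 4 lower in Wnt4-positive cells. Without library 1, 2 or 3 the hypoxia targets higher in Wnt4-positive cells numbered 1, 5 and 2, and those lower 2, 4 and 3. Among them Ddit4 fell by 0.93 ± 0.12 and P4ha2 rose by 0.60 ± 0.15 in Wnt4-positive cells. Bnip3l was lower in Lhx1-positive than in Wnt4-positive cells (-0.33 ± 0.07, edgeR adjusted p = 0.00329), and this call was lost without library 1.

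Cell cycle genes, which mark division, and immediate early genes, which can respond to handling of tissue, moved with the same groups. Whether handling had a part in this was not tested. Of 18 cycle genes 11 were higher in Fgf8-positive and 12 in Wnt4-positive cells, with 0 lower in each. The shares of all genes were 5.31% and 8.99% higher and 4.75% and 8.53% lower in these groups. Of 18 immediate early genes 11 were lower in Fgf8-positive cells with 0 higher, and 12 were lower and 3 higher in Wnt4-positive cells. Of those 3, Atf3 and Ier3 were higher only in library 2, at 13.2 and 41.0 CPM against 1.07 and 3.70 in its Six2-only cells, and without library 2 neither passed (edgeR adjusted p = 0.756 and 0.367). Without library 1, 4 cycle genes were higher and 6 immediate early genes lower in Fgf8-positive cells, and serine synthesis had 3 genes higher there and 2 in Wnt4-positive cells. The citric acid cycle list then had 1 and 3 genes higher in these groups. The part of these lists in the changes of the glycolysis genes was not tested beyond the values given for cells without Mki67 or Top2a UMIs.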

How the data were processed

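Kidney cells sorted for Six2-driven fluorescence were profiled with 10x version 2 chemistry in 3 libraries. The authors deposited counts, whole numbers of UMIs per gene and cell made with Cell Ranger 1.3.1 on mm10, per the submitters' processing notes. The matrix marks libraries by barcode suffix, used here as the library name, and the sources used here do not tie a label to a suffix. Of 7924 barcodes, 7898 had at least 1000 genes and at most 10% mitochondrial UMIs. Scrublet in scanpy 1.11.5 (expected share 3%) called 23 cells (0.291%), which were left out. So small a fraction cannot be relied on, the number of remaining doublets was not tested, and removal of the 6% highest scores was an alternative.

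UMIs were summed per library and cell group (12 sums) and all genes tested in one fit with edgeR 4.0.16 (quasi-likelihood test, TMM, filterByExpr, library as a block, Benjamini-Hochberg, threshold 0.05, two-sided, 12269 genes). DESeq2 1.42.0 was an alternative. SEs are the log2 change over the square root of F. On simulated data the share of false calls exceeded the nominal level in the Fgf8 comparison. Cells are not replicates. With the library as a block, p-values rest on the spread of group differences over 3 tubes, which may be technical. Constant differences between tubes do not enter this spread, and its estimate is shared by the 4 groups. Intervals and limits cover counting error only. The genes, lists and tests were chosen with earlier results of these data known. All members were named by level, those that passed with their changes, and of each list at most 3 genes a comparison, those with the largest changes that passed. Pfkp, Slc16a3, Bpgm, Pdk1 and Phgdh were given changes after their values were seen. Promoters came from RefSeq (GRCm38.p6).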

Additional observations from a re-analysis of the deposited data

How the results depend on the processing

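The number of members called depended on the fit and on depth, with 5, 10 and 0 members and 1235, 2149 and 173 genes in the Fgf8, Wnt4 and Lhx1 comparisons as reported. DESeq2 called 287 genes and 3 members in the Fgf8 comparison. Without the library block, which pairs sums of the same tube, 1, 259 and 96 genes and 0 and 1 members were called in the Fgf8 and Wnt4 comparisons, where the differences between libraries enter the spread. With cells thinned before grouping the numbers were 365, 426 and 36 genes and 3 and 4 members. Without cells with Mki67 or Top2a UMIs they were 724, 392 and 11 genes, and 4 members in the Wnt4 comparison. With every sum thinned to 373985 UMIs they were 2, 117 and 44 genes and 0 and 0 members. In the Lhx1 comparison 312 genes and 1 member were called with no filter on low counts, and 1 member with at least 2 UMIs for a group. Leaving out each library in turn gave 339 to 1004, 1011 to 2058 and 54 to 255 genes and 2 to 5, 5 to 9 and 0 to 0 members, with the gene numbers lowest without library 1 in each. Hk2 in the Wnt4 comparison turned to -0.16 with thinned cells, and Pgam1 to -0.042 with every sum thinned. Of the 15 member calls, 8 were lost without library 1, 2 without library 2 and 3 without library 3.

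The Hk2 share in Wnt4-positive cells was 46.4% with thinned cells and 50.9% without Mki67 or Top2a UMIs, and 26.7% in Lhx1-positive cells without them. The Ldhb share was 19.3% and 20.4% in Six2-only, 17.8% and 19.1% in Fgf8-positive and 20.8% and 21.8% in Wnt4-positive cells under the same settings, and 16.6% in Fgf8-positive cells with at least 2 UMIs. Without each library the Hk2 share was 32.9% to 40.2%, 39.5% to 46.1%, 54.1% to 60.1% and 45.0% to 56.7% in Six2-only, Fgf8-positive, Wnt4-positive and Lhx1-positive cells, and the Ldhb share 18.1% to 18.5%, 16.8% to 17.0%, 18.0% to 19.1% and 20.6% to 24.6%. The cause of these moves was not tested.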

Other observations

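The sort also let through 74 cells with at least 3 UMIs of immune markers, in which Ptprc, the leukocyte surface phosphatase, was at 207 ± 18.4 CPM (SD, n = 3). Six2 was at 12.3 ± 10.7 CPM there. Of these cells, 69 fell in none of the 4 groups. Their glycolysis genes read differently from those of Six2-only cells. Aldoa was at 968 ± 337 CPM against 569 ± 124, and Pdk1 at 42.1 ± 28.1 against 20.1 ± 3.74. Slc2a3 was at 32.9 ± 44.4 CPM on 22 UMIs, with libraries from 3.73 to 84.0. Ldhb was at 33.0 ± 17.5 CPM against 205 ± 36.8, Eno3 at 22.9 ± 4.74 against 113 ± 21.6 and Eno1 at 585 ± 94.8 against 1174 ± 284. Hk2 was at 24.7 ± 5.48 CPM, within the range of the mean levels of the 4 groups. Ldha was at 877 ± 232 CPM, with libraries from 628 to 1087, while the lowest group mean was 913 CPM in Six2-only cells. No test was made of these differences.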
